A study of Mus musculus with 8 samples.

Results

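The replication-dependent histone genes code for the core histones H2A, H2B, H3 and H4 and the linker histone H1 that package newly made DNA. They were taken here as every entry of the deposited expression tables whose symbol starts with Hist1h, Hist2h, Hist3h or Hist4h. This gave 75 of the 24849 entries, which carry 68 symbols, since 7 symbols are listed at 2 loci each. By class the entries were 6 of H1, 22 of H2A, 19 of H2B, 14 of H3 and 14 of H4. In the mouse genome build NCBIM37 (mm9) they lie in 4 clusters. Hist1 holds 57 entries on chromosome 13 between 21807582 and 24026782. Hist2 holds 14 entries on chromosome 3 between 96023839 and 96074115. Hist3 holds 3 entries on chromosome 11 between 58762413 and 58768694, and Hist4 is a single gene on chromosome 6, Hist4h4, from 136752514 to 136752952. The family was chosen for description on its levels in Pcgf5-/- and WT cells at day 0, so that difference is given as a description, with no test.

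RNA was sequenced from 8 samples of the mouse embryonic stem cell (mESC) line MPI-II, of the 129S2/SvPas strain, with 2 samples in each of 4 groups. WT and Pcgf5-/- cells were sampled at day 0, as stem cells kept on feeder cells with LIF and 2i, and at day 6 of culture in the serum-free N2B27, which lets stem cells take on a neural fate. Pcgf5 codes for a subunit of Polycomb repressive complex 1, which adds ubiquitin to histone H2A. The Pcgf5-/- cells were made with a TALEN pair against the second exon and a donor with puromycin and neomycin cassettes, and were grown from single picked colonies, so that a difference between the genotypes cannot be told apart from a difference between such colonies. Libraries were made from poly(A)+ RNA, and levels are FPKM, fragment counts scaled to transcript length and to the mapped fragments of the library.

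Replication-dependent histone mRNAs are made in S phase, when DNA is copied. They are the best known mRNAs of animals without a poly(A) tail. Their pre-mRNA has no introns and is cut a few bases after a short hairpin, the stem-loop, which is bound by the stem-loop binding protein SLBP. A library of poly(A)+ RNA therefore holds only a part of these transcripts, those that end in a poly(A) tail or were carried over, and the values below are levels in such libraries.

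The stem-loop was looked for in the 150 bases after the stop codon, as a 16-base run that starts with GG, ends with CC, forms 6 pairs (G with T allowed) and has TT as the first bases of its loop. Of the 72 entries with a coding model in the GENCODE annotation of mm9, 67 held one (93.1%), at 24 to 61 bases after the stop codon. Among 22689 other genes with a coding model, 31 held one (0.137%). The following sequences from mm9 show it in genes on which the results turn, with 5 bases on each side, the stem-loop in capitals and the strand of the gene.
Hist1h3c (H3), chr13:23836911-23836936, minus strand: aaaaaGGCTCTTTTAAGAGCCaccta
Hist1h2bj (H2B), chr13:22135502-22135527, plus strand: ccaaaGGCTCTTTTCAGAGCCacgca
Hist1h1c (H1), chr13:23831376-23831401, plus strand: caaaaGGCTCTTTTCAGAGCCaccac
Hist1h2ag (H2A), chr13:22134347-22134372, minus strand: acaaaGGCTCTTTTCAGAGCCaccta
Hist1h4d (H4), chr13:23673814-23673839, plus strand: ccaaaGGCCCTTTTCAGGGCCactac
Hist1h4b (H4), chr13:23849230-23849255, plus strand: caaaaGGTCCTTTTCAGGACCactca
Hist4h4 (H4), chr6:136752514-136752539, minus strand: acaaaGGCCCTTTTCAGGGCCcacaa
The H1, H2A, H2B and H3 genes shared a stem of GGCTCT and AGAGCC, and the H4 genes had GGCCCT or GGTCCT in its place. No stem-loop of this form was found within the window in Hist1h2an, Hist1h3g, Hist1h4a, Hist2h2be and Hist2h2bb. Of the histone variant genes searched, H2afx alone held one, 49 bases after its stop codon, whereas H2afz, H2afj, H2afv, H2afy, H2afy2, H3f3a, H3f3b, H1fx, H1foo and Cenpa held none. The deposited locus of 61 of the 67 entries ended within 10 bases of the end of the stem-loop. The poly(A) signal AATAAA stood on the sense strand within 500 bases after the stop codon in 12.5% of the 72 entries, against 47.8% of the other genes.

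Many histone genes lie head to head, so that an H2A gene and an H2B gene start on either side of one short stretch of DNA. In the deposited loci, 14 such H2A and H2B pairings of entries were found, with 167 to 305 bases between them. The stretch between Hist1h2ag (minus strand) and Hist1h2bj (plus strand) is shown, since Hist1h2bj had the largest genotype difference at day 0 among the H2B entries and the groups of its neighbour overlapped. It is given on the plus strand of mm9, with the letters CCAAT and their complement ATTGG in capitals.
chr13:22134819-22135098: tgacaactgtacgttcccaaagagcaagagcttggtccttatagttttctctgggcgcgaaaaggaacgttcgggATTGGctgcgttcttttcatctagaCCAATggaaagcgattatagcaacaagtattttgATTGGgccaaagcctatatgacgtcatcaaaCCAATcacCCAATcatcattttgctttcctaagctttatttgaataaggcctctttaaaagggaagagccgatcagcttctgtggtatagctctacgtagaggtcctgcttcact
These 280 bases hold the CCAAT letters 5 times, on either strand. In the RefSeq promoters of build GRCm38.p6, which reach from 250 bases before to 50 bases after a start site, 62 of the 68 symbols had a sequence. The CCAAT letters, searched on both strands, stood in every matched promoter of the H1, H2A, H2B and H3 genes and in 3 of 12 of the H4 genes, against 37.9% of all 27025 promoters. The TATA box letters TATAAA stood in 56.5% of the members' promoters against 14.2% of all. The octamer ATTTGCAT, an element of H2B promoters, stood in 6 of 16 H2B and 7 of 18 H2A promoters and in none of the others, against 1.75% of all promoters. The windows of head-to-head H2A and H2B neighbours can overlap, so the same letters can be counted for both genes.

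Near-identical copies can share reads, and the authors' way of dividing such reads is not given in the sources used here. Each entry was cut into all its 50-base windows, and 69 of the 75 entries had windows that occur elsewhere in mm9. The median share of such windows was 73.2% in H2A, 68.7% in H2B, 75.2% in H3, 49.4% in H4 and 9.54% in H1 entries. Hist4h4, Hist2h2be, Hist2h2bb, Hist1h1a, Hist1h1b and Hist1h1t had none. Some entries are copies of one place. Hist1h2ap had at most 0.011 FPKM in every sample while Hist1h2ao, whose loci overlap it, had 259 to 398 FPKM. Hist2h2aa2 stood likewise near 0 beside the overlapping Hist2h2aa1. A value of one copy is therefore uncertain, and counts of entries below are not counts of independent genes. Hist2h2ab was listed at 0 in all 8 samples.

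The labels were checked on the targeted gene. At day 0 Pcgf5 had 5.18 and 3.63 FPKM in WT against 1.28 and 1.84 FPKM in Pcgf5-/- cells, and at day 6 9.16 and 5.06 FPKM against 0.669 and 0.457 FPKM. The 12 mESC markers summed to 1858 to 2042 FPKM at day 0 and to 215 to 991 FPKM at day 6, and the 12 neural markers to 58.0 to 105 and 287 to 805 FPKM. Replicates correlated at Pearson r = 0.972 to 0.974 over the 13214 genes tested, and depth, read from the most common ratio between low values, ranged from 0.979 to 1.31 times that of the first WT sample of day 0. Fibroblast markers, which mark the feeder cells, summed to 370 and 522 FPKM in WT against 361 and 914 FPKM in Pcgf5-/- cells of day 0, and to 64.8 to 102 FPKM at day 6, with none of the 15 listed at 0.

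The classes stood at very different levels, and the H2A class stood apart. In the WT samples of day 0 the entries summed to 997 ± 106 FPKM for H2A, 55.3 ± 0.101 for H2B, 30.6 ± 9.28 for H4, 21.1 ± 0.259 for H3 and 20.7 ± 3.31 for H1 (SD, n = 2). The H2A sum came from 11 entries of the Hist1 cluster that were over 10 FPKM in all 8 samples, which no entry of another class was. They made up 76.5% to 93.9% of the summed FPKM of the family in each sample. The highest was Hist1h2ao, with 259 to 398 FPKM at one of its loci, followed by Hist1h2ad with 75.8 to 120.4 FPKM and Hist1h2af with 75.5 to 120.4 FPKM. Hist1h2ag, Hist1h2ae, Hist1h2ab and Hist1h2ac were the lowest of the 11, with 11.9 to 35.9 FPKM, and their ranges overlap.

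In the sum of these 11 H2A entries the genotypes overlapped at each day. At day 0 it came to 908 and 1063 FPKM in WT and to 926 and 1197 FPKM in Pcgf5-/- cells. Later, at day 6, it was 1086 and 1321 FPKM in WT and 980 and 1382 FPKM in Pcgf5-/- cells. Replicate 2 was above replicate 1 in all 4 groups. The same order of replicates in all 4 groups held for 10 of the 11 entries one by one, and for 11.7% of all genes tested. All 11 share 68 to 82 of their 50-base windows with H2afx, the gene of the variant H2A.X that marks broken DNA, which lies on chromosome 9. At day 0 H2afx had 172 and 196 FPKM in WT and 151 and 198 FPKM in Pcgf5-/- cells. It had 103 and 129 FPKM in WT and 91.4 and 109 FPKM in Pcgf5-/- cells by day 6, a fall in each genotype (log2 change -0.67 ± 0.18 and -0.79 ± 0.18, SE, limma adjusted p = 0.0140 and 0.0122). None of the 11 entries passed the limma threshold in a tested comparison or had an unadjusted p under 0.05 without a replicate block, and their log2 changes over time were 0.19 to 0.41 in WT and -0.01 to 0.24 in Pcgf5-/- cells. With the replicate number as a block, 3 of the 11 rose over time in WT cells (Hist1h2ai, Hist1h2an and Hist1h2ab, lowest limma adjusted p = 0.0316), where 35.6% of all genes rose, and with a block for each day none did (lowest limma adjusted p = 0.0835, 1 with an unadjusted p under 0.05). Hist2h2aa1 shares 74 such windows and stood at 0.66 to 7.12 FPKM, with the status LOWDATA in the deposited values. In 9 of the 11 entries the deposited FPKM lay above the upper bound of its own confidence interval in all 8 samples, which no other entry of the family did. Other members did so in some samples, such as Hist1h4d in 4. Of all 24849 entries, 1074 to 1346 did so in a sample. The part of shared reads in these levels was not tested.

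**Figure D1:**
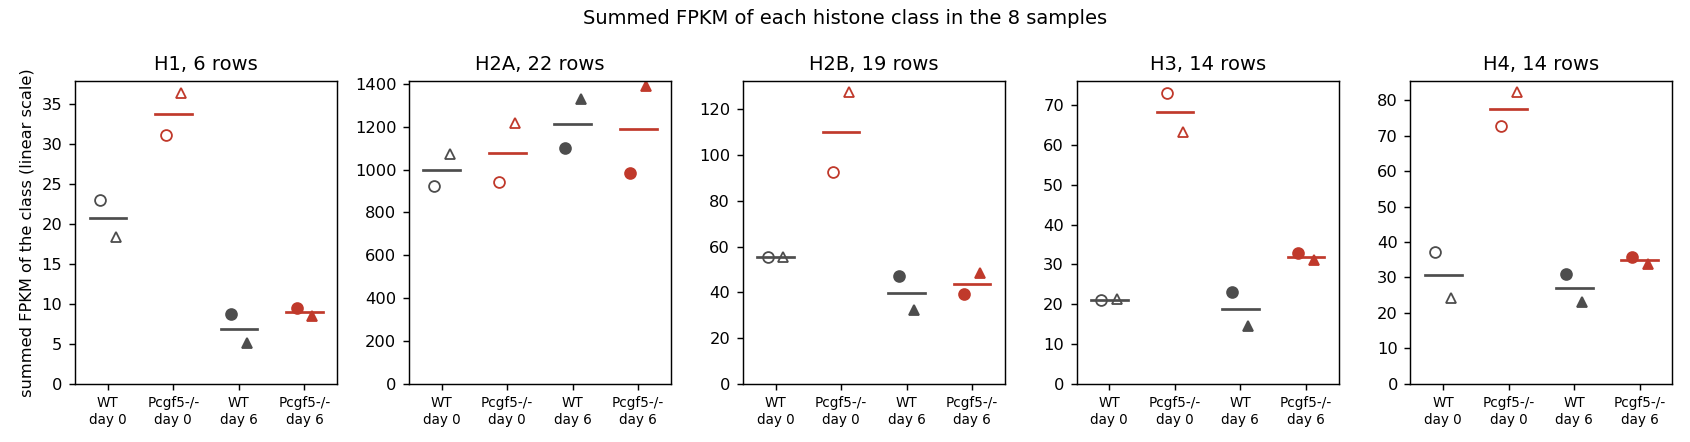
Summed FPKM of the entries of each histone class (linear scales that differ between panels) in the 4 groups. Circles are replicate 1, triangles replicate 2 and lines the group means. The H2B, H3 and H4 sums of both Pcgf5-/- samples of day 0 lie above all other samples, whereas the H2A sums follow the replicate number.

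At day 0 the H2B, H3 and H4 entries stood at higher levels in Pcgf5-/- than in WT cells. Their values chose the family and are a description only. The 47 entries of these 3 classes summed to 113 and 101 FPKM in WT and to 238 and 273 FPKM in Pcgf5-/- cells, a ratio of means of 2.39. By class the ratio was 1.99 for H2B, 3.23 for H3, 2.53 for H4, 1.63 for H1 and 1.08 for H2A. On the log2(FPKM + 1) scale, which makes the difference of a low gene smaller than its FPKM ratio, the median difference over all 75 entries was 0.60, beside 0.11 over all genes tested. Class medians were 1.08 for H3, 0.93 for H4, 0.58 for H2B, 0.55 for H1 and 0.10 for H2A. Both Pcgf5-/- samples lay above both WT samples in 45 of the 75 entries and below them in 1, and the shares over all genes tested were 34.6% and 13.3%. The threshold was passed upwards by 7 entries and downwards by none, where 0.288% and 0.0454% of all genes tested passed it, and nothing is read from these counts. In these bulk samples, fewer cells of a type and less RNA per cell cannot be told apart.

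Hist1h3c had the largest difference at day 0. It had 4.66 and 3.82 FPKM in WT and 20.05 and 17.3 FPKM in Pcgf5-/- cells, a difference of 1.91 ± 0.23 (SE) in log2(FPKM + 1). Hist1h2bj had 3.30 and 4.15 FPKM in WT and 13.2 and 19.1 FPKM in Pcgf5-/- cells, a difference of 1.84 ± 0.25. In both genes each Pcgf5-/- sample was far above each WT sample. Hist1h3e had 1.37 and 0.62 FPKM in WT against 5.46 and 5.86 FPKM. Hist1h4b had 0.790 and 0.792 FPKM in WT against 3.88 and 6.37 FPKM. Hist1h2bk had 4.06 and 3.39 FPKM in WT against 12.2 and 14.4 FPKM. The most abundant H4 genes were Hist1h4i and Hist1h4d. Hist1h4i had 9.61 and 7.62 FPKM in WT against 16.2 and 20.1 FPKM, and Hist1h4d 4.93 and 4.18 against 14.6 and 11.05 FPKM. No groups overlap in these 7 genes. The groups were closer in Hist1h1c, the most abundant H1 gene, with 14.7 and 13.4 FPKM in WT against 14.9 and 26.2 FPKM.

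**Figure D2:**
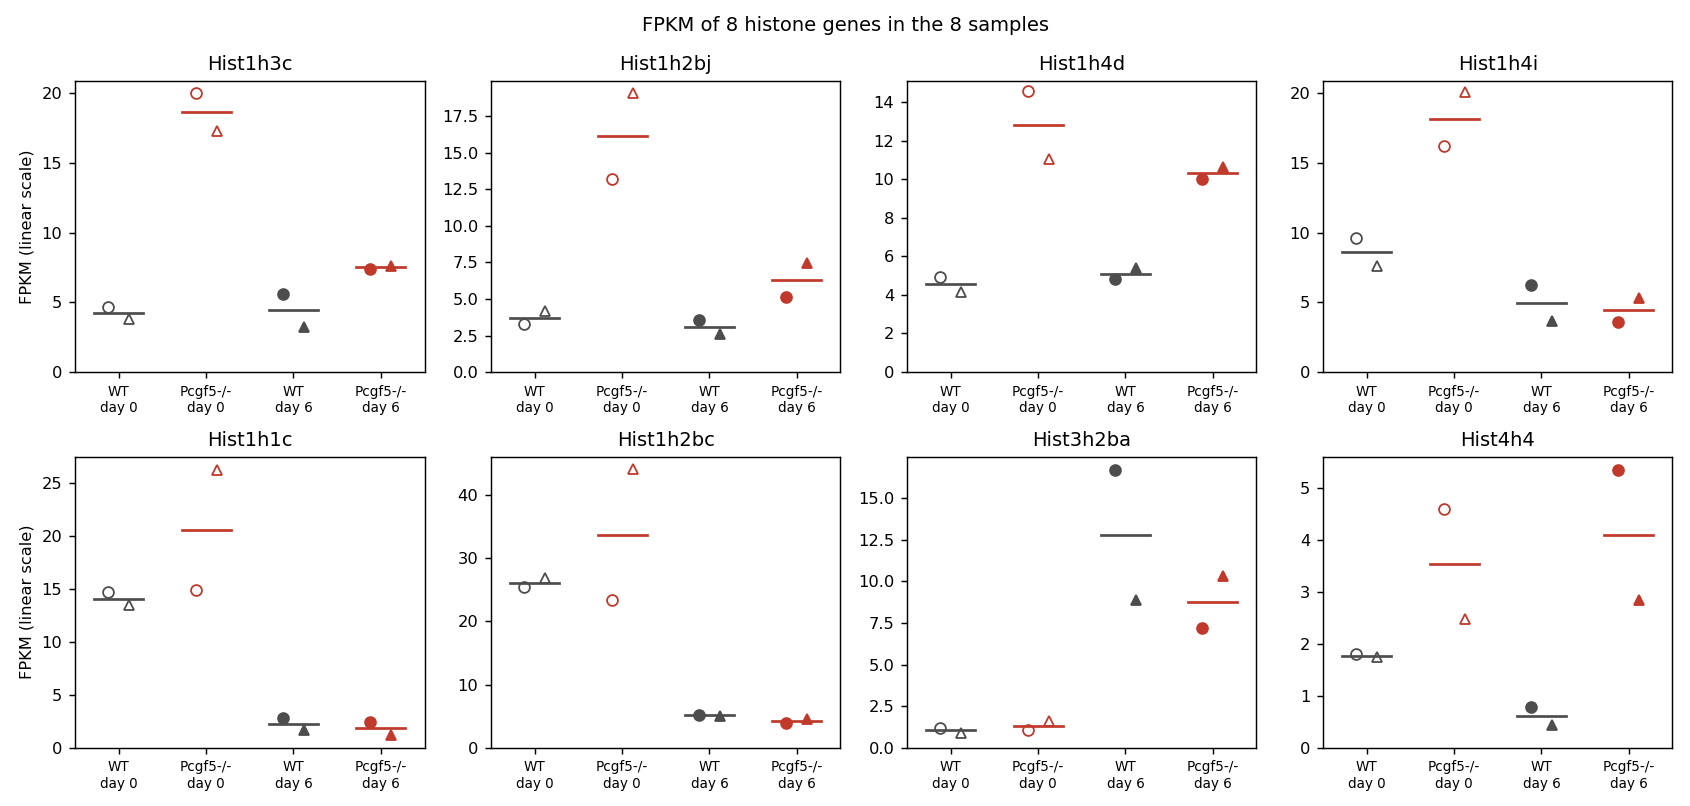
FPKM (linear scales that differ between panels) of 8 histone genes in the 4 groups. Circles are replicate 1, triangles replicate 2 and lines the group means. Hist1h3c, Hist1h2bj and Hist1h4i are highest in Pcgf5-/- cells of day 0, Hist1h1c and Hist1h2bc are low in both genotypes at day 6, and Hist3h2ba is high there.

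The abundant H2A genes that lie head to head with H2B genes had smaller differences at day 0 than these neighbours. In 9 pairings the H2A entry was one of the 11 abundant ones, and in all 9 the difference at day 0 was larger in the H2B entry. It ranged from 0.29 to 1.84 (median 1.18) in the H2B entries and from 0.03 to 0.27 (median 0.09) in the H2A entries. Hist1h2ag, across the 280 bases printed above from Hist1h2bj, had 15.1 and 24.4 FPKM in WT and 21.7 and 25.2 FPKM in Pcgf5-/- cells, and its groups overlap. Hist1h2ak, an H2A gene that shares 32 windows with H2afx and stood at 1.12 to 3.72 FPKM, had a difference of 0.75, beside 0.40 in its neighbour Hist1h2bn. These values are a description with no test.

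**Figure D3:**
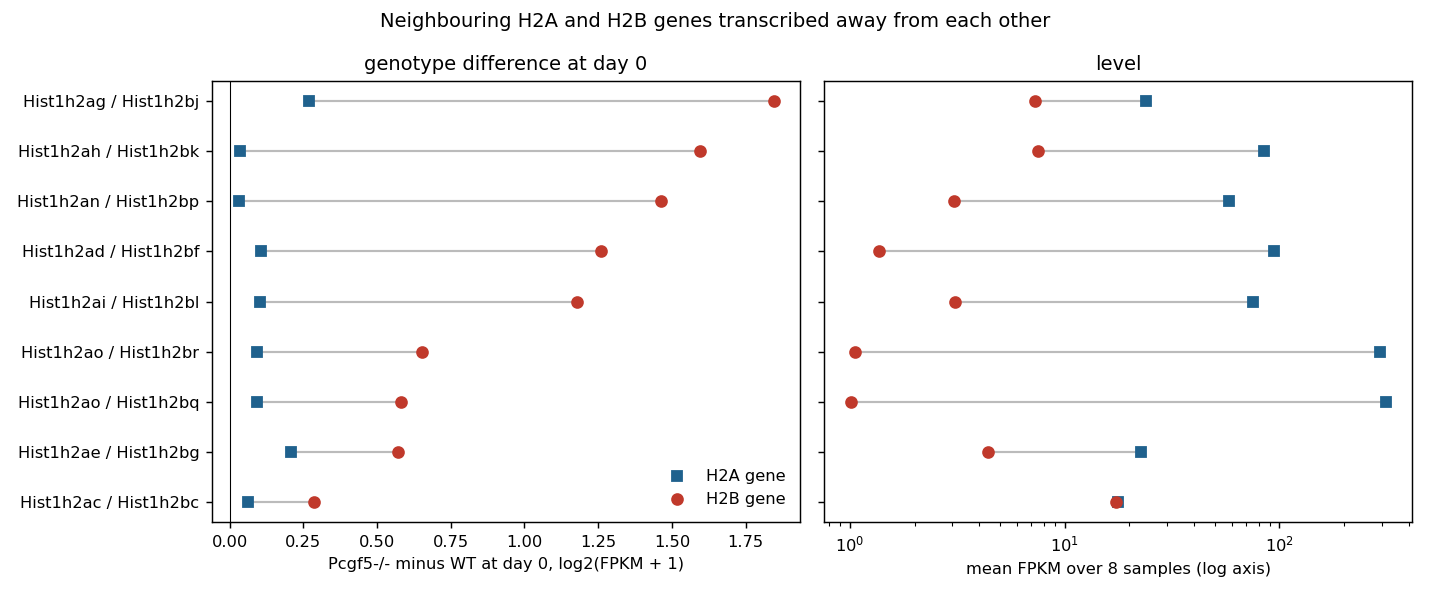
Head-to-head pairings in which the H2A entry was over 10 FPKM in all 8 samples. Left, difference between Pcgf5-/- and WT cells at day 0 in log2(FPKM + 1), and right, mean FPKM over the 8 samples on a log axis, with squares for H2A and circles for H2B. The H2B difference is the larger in all 9 pairings, while the mean H2A level is the higher one. In Hist1h2ac and Hist1h2bc these means are close (17.7 and 17.3 FPKM), and at day 0 the H2B gene was the higher one.

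Marker genes of other kinds were compared at day 0 as well. The fibroblast markers had a median difference of 0.50, and the second Pcgf5-/- sample held the most of them, 914 FPKM. The median over the 75 histone entries was 0.60 with all samples and 0.54 without that one. Both medians use the day 0 values that chose the family, and nothing about feeder cells is read from them. RNAs without a poly(A) tail, small nucleolar RNAs for the most part, summed to 5208 and 1417 FPKM in WT and 3656 and 4279 FPKM in Pcgf5-/- cells, so the groups overlap, but 113 to 121 of the 132 were listed at 0 in each sample. Of 29 genes of S phase and the cell cycle, none passed the limma threshold and 2 had an unadjusted p under 0.05, and their median difference was 0.02. The part of feeder cells and of poly(A) selection in the histone values was not tested.

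At day 6 the genotypes were nearer to each other, and the differences are between samples other than those on which the family was chosen. The fit and its filter also used the day 0 samples, so the calls are not wholly independent of that choice. Of the 75 entries 64 had passed the filter of a mean over 1 FPKM in a group. Some, such as Hist1h4c and Hist1h2ba, passed it only through the Pcgf5-/- samples of day 0. Of the 64, 2 rose in Pcgf5-/- cells and none fell (limma, all 8 samples, adjusted p under 0.05). Of all genes tested 9.57% were higher and 7.05% lower. The median difference over all 75 entries was 0.00, beside 0.02 over all genes. Hist1h4d had 4.83 and 5.39 FPKM in WT and 10.01 and 10.7 FPKM in Pcgf5-/- cells, a difference of 0.89 ± 0.19 (SE, limma adjusted p = 0.0176). The groups do not overlap, and from day 0 to day 6 its log2 change in Pcgf5-/- cells was -0.27 ± 0.19 (SE, limma adjusted p = 0.291). Hist4h4 had 0.79 and 0.44 FPKM in WT and 5.35 and 2.83 FPKM in Pcgf5-/- cells, a difference of 1.62 ± 0.31 (SE, limma adjusted p = 0.0133). Leaving out any 1 of the 4 samples of day 6 ended the call of Hist1h4d (difference 0.83 to 0.96, limma adjusted p = 0.0769 to 0.0842). That of Hist4h4 ended without the second WT sample (1.47, limma adjusted p = 0.0822) or the first Pcgf5-/- sample of that day (1.26, limma adjusted p = 0.0796), and without either of these no member passed. At an unadjusted limma p under 0.05, 9 of the 64 members passed with all samples. Nothing is read from this count, since 9.57% and 7.05% of all genes passed the stricter adjusted threshold upwards and downwards.

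Marker genes of other kinds were compared at day 6 too. RNAs without a poly(A) tail summed to 1321 and 3079 FPKM in WT and 3572 and 8875 FPKM in Pcgf5-/- cells, but these sums rest on single genes. Snora68 gave 7648 FPKM in the first Pcgf5-/- sample and Snora41 1925 FPKM in the second, and each was at 0 in the other 7 samples. Of the 27 tested none passed the limma threshold and 1 had an unadjusted p under 0.05, with a median difference of 0.00, and 121 of the 132 were listed at 0 in each sample of day 6. Of the 29 S phase and cell cycle genes 3 rose in Pcgf5-/- cells and none fell, a share near the 9.57% of all genes tested, with the largest difference in Mcm2 (0.68), a subunit of the replicative helicase. Of the 12 mESC markers 10 rose and of the 12 neural markers 10 fell. Their part in the histone values was not tested.

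Hist4h4 lies on a chromosome whose genes as a whole stood higher in Pcgf5-/- cells. The 643 tested genes of chromosome 6 had a median difference of 0.37 at day 6 and 0.41 at day 0. Of the 10 other tested genes within 1 Mb of Hist4h4, 9 were higher at day 6, and 3 passed the threshold upwards, beside 9.57% of all genes tested. In H2afj, the nearest of them, the difference was 0.14 ± 0.17 (SE, limma adjusted p = 0.608). The medians were -0.04 at day 6 for chromosome 13, which carries Hist1, and -0.06 for chromosome 3, which carries Hist2. The 1086 tested genes of chromosome 11, which carries Hist3, had a median of 0.38, but Hist3h2a had 8.57 and 5.92 FPKM in WT and 3.04 and 3.30 FPKM in Pcgf5-/- cells, a difference of -0.96 ± 0.44 (SE, limma adjusted p = 0.170). The part of the chromosome in the value of Hist4h4 was not tested.

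At day 6 the H3 class had the largest median difference of the 5 classes. It was 0.55, beside 0.10 for H2B, -0.01 for H4, 0.05 for H1 and -0.06 for H2A. Both Pcgf5-/- samples lay above both WT samples in 10 of the 14 H3 entries and below them in none, against 33.4% and 28.8% of all genes tested. Hist1h3h had 3.14 and 1.74 FPKM in WT and 4.42 and 4.90 FPKM in Pcgf5-/- cells (difference 0.75 ± 0.23, SE, limma adjusted p = 0.0573), and Hist1h3c 5.63 and 3.23 FPKM against 7.42 and 7.63 FPKM (0.69 ± 0.23, limma adjusted p = 0.0789). Of 13 H3 entries tested none passed the limma threshold, which 9.57% of all genes passed upwards and 7.05% downwards. An unadjusted limma p under 0.05 was found in 4, a cut-off for which no share over all genes is given here. H3 entries share most of their 50-base windows with each other. Hist1h2bj had 3.56 and 2.58 FPKM in WT against 5.11 and 7.45 FPKM (0.83 ± 0.25, limma adjusted p = 0.0579).

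In WT cells few histone entries changed over the 6 days. From day 0 to day 6 1 entry rose and 5 fell, where 34.2% of all genes tested rose and 16.2% fell, and the median over all 75 entries was 0.00, beside 0.22 over all genes. This comparison and the next reuse the day 0 samples on which the family was chosen. The count of the falls depends on the scale. With each sample centred on the median of the tested genes, 1 entry rose and 17 fell. The shares over all genes above are from the fit without centring, those after centring are not given here, and nothing is read from this count. Hist1h1c, a linker histone gene, fell from 14.7 and 13.4 FPKM to 2.83 and 1.69 FPKM (log2 change -2.23 ± 0.32, SE, limma adjusted p = 7.26e-04). Hist1h2bc, an H2B gene whose deposited locus runs 7818 bases past its stem-loop, fell from 25.4 and 26.8 FPKM to 5.13 and 5.09 FPKM (-2.15 ± 0.26, limma adjusted p = 3.47e-04). Hist1h3g fell from 3.53 and 3.67 FPKM to 1.63 and 1.28 FPKM (-0.91 ± 0.19, limma adjusted p = 0.00499). Hist1h2bg and Hist1h4i also fell, by 0.78 and 0.72 in log2 units, with limma adjusted p = 0.0254 and 0.0496, but leaving out any of the 4 WT samples ended the call of Hist1h2bg (limma adjusted p = 0.0552 to 0.139). That of Hist1h4i ended without any 1 of the 8 samples other than the first WT sample of day 6 (limma adjusted p = 0.0524 to 0.3001). Fibroblast markers fell in the same comparison, with a median of -2.28 and 12 of 15 past the threshold, and their part in these falls was not tested.

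Hist3h2ba was the member that rose. It codes for an H2B protein, lies on chromosome 11 and has AATAAA 189 bases after its stop codon. These letters are not particular to it, since Hist1h3g, which fell in both genotypes, has them 285 bases after its stop codon. Hist3h2ba had 1.18 and 0.90 FPKM in WT cells at day 0 and 16.7 and 8.89 FPKM at day 6 (log2 change 2.70 ± 0.30, SE, limma adjusted p = 2.29e-04). In Pcgf5-/- cells it had 1.06 and 1.59 FPKM at day 0 and 7.17 and 10.3 FPKM at day 6 (2.06 ± 0.30, limma adjusted p = 0.00218). The days do not overlap in either genotype, and the genotypes overlap at both days.

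In Pcgf5-/- cells 29 entries fell over the 6 days and 1 rose, where 10.4% of all genes tested fell and 21.9% rose. The median over all 75 entries was -0.69, beside 0.13 over all genes. Since high levels in the Pcgf5-/- samples of day 0 chose the family, these falls are not independent of that choice. Their count and p-values are therefore no test of the family. Some of the 29 passed the FPKM filter only through these samples. Hist1h4c and Hist1h2ba had means of 1.48 and 1.88 FPKM there and under 1 FPKM in every other group. The 29 were 14 of H2B, 6 of H3, 6 of H4, 2 of H2A and 1 of H1. Hist1h1c fell from 14.9 and 26.2 FPKM to 2.45 and 1.23 FPKM and Hist1h2bc from 23.3 and 44.0 FPKM to 3.86 and 4.62 FPKM, as they did in WT cells. Hist1h4i fell from 16.2 and 20.1 FPKM to 3.60 and 5.28 FPKM (log2 change -1.83 ± 0.26, SE, limma adjusted p = 0.00191). Hist1h4h fell from 7.21 and 9.34 FPKM to 2.08 and 1.78 FPKM (-1.65 ± 0.35, limma adjusted p = 0.00909). Hist1h3c fell by 1.202, Hist1h3e by 1.19 and Hist1h2bj by 1.23 in log2 units (limma adjusted p = 0.00654, 0.00773 and 0.00830). In WT cells these 3 genes had log2 changes of 0.02, 0.32 and -0.22, none past the threshold. Leaving out either of the Pcgf5-/- samples of day 6 left 15 members past the threshold. Fibroblast markers fell in this comparison as well, with a median of -2.63 and 12 of 15 past the threshold, and Hist1h1c and Hist1h2bc were highest in the sample that held the most of them. Their part in the falls was not tested.

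A few members went opposite ways. In 5 of the 75 entries both samples of day 6 lay above both of day 0 in WT cells and below them in Pcgf5-/- cells, a pattern that 2.04% of all genes tested had. In 3 entries both Pcgf5-/- samples lay above both WT samples at day 0 and below them at day 6, as in 7.87% of all genes tested. These patterns contain the difference on which the family was chosen, and nothing is read from the counts.

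**Figure D4:**
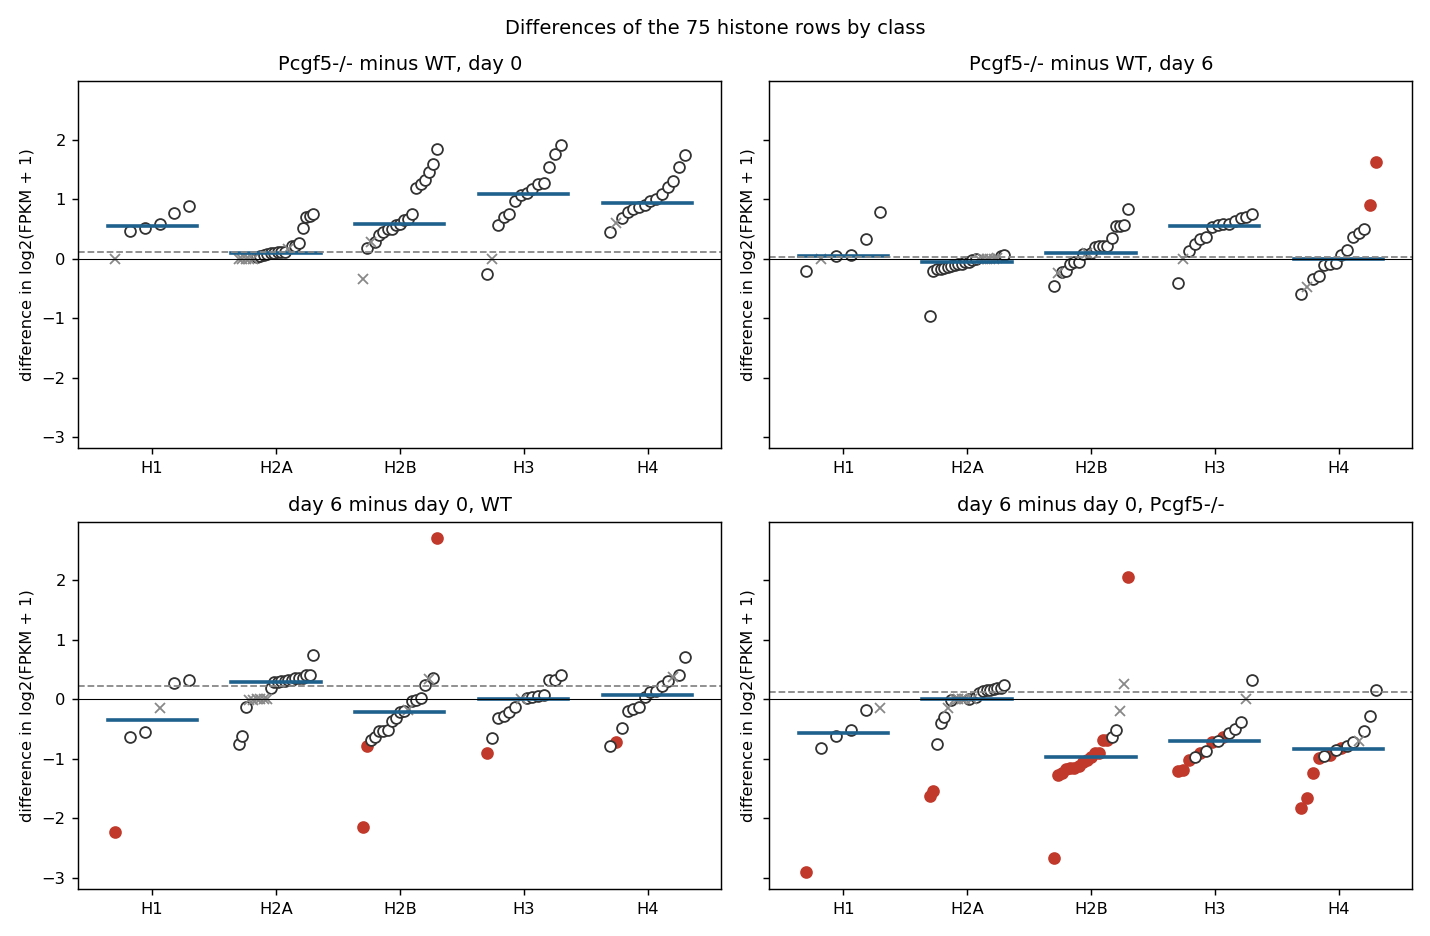
Differences in log2(FPKM + 1) of the 75 histone entries by class in 4 comparisons. Each point is an entry, filled where it passed the threshold (not marked in the panel of day 0, which has no test), a cross where it was not tested, blue lines are class medians and the dashed line is the median of all genes tested. H2B, H3 and H4 lie above the dashed line in Pcgf5-/- cells at day 0 and below it from day 0 to day 6 in Pcgf5-/- cells, and the H2A medians stay near it.

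The smaller clusters and the germline forms were mostly low. In Hist2, Hist2h2aa1 at its locus from 96043702 had 2.30 and 2.27 FPKM in WT against 3.14 and 6.09 FPKM in Pcgf5-/- cells of day 0. By day 6 the levels were 1.34 and 0.96 FPKM in WT and 0.66 and 1.07 FPKM in Pcgf5-/- cells. Its log2 change with time in Pcgf5-/- cells was -1.55 ± 0.27 (SE, limma adjusted p = 0.00438). Hist2h2bb fell in these cells too, from 3.42 and 2.04 FPKM to 0.89 and 0.43 FPKM. Hist2h3c2 fell in them at 1 of its 2 loci, by 0.64 on the log2 scale. These falls also contain the day 0 levels on which the family was chosen, so they are no test of it. At its other locus Hist2h3c2 had 0.0057 FPKM in the second Pcgf5-/- sample of day 0, in which the overlapping Hist2h3c1 had 2.83 FPKM, and 0.001 FPKM in the other 3 samples of that day. Hist2h3b, Hist2h2ac, Hist2h4 and Hist2h2be had at most 4.32 FPKM in any sample. Hist2h2be did not pass the FPKM filter and was not tested, and none of the others passed in a tested comparison. Hist1h1t, the linker histone of the testis, was at 0 in 5 samples and at most 0.240 FPKM in the others, and Hist1h2aa, a germline H2A, was above 0 in 1 sample, at 0.236 FPKM. Hist1h2ba, its H2B neighbour, had 0.22 to 2.66 FPKM. The pseudogene Hist3h2bb-ps had at most 0.47 FPKM. Hist1h1a, another linker histone gene, had at day 6 2.00 and 1.43 FPKM in WT against 3.15 and 4.16 FPKM in Pcgf5-/- cells (difference 0.78 ± 0.31, SE, limma adjusted p = 0.119).

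Of 26 genes of histone transcription and 3′ processing, none passed the limma threshold at day 0 and 4 had an unadjusted p under 0.05, and the median difference was -0.01. Slbp, which codes for the stem-loop binding protein, had 99.0 and 78.4 FPKM in WT and 102 and 75.9 FPKM in Pcgf5-/- cells, and Npat, which switches on histone genes in S phase, 13.9 and 14.5 against 13.9 and 13.9 FPKM. Lsm11, a part of the U7 particle that guides the cut, had 1.205 and 0.86 FPKM in WT and 2.78 and 2.48 FPKM in Pcgf5-/- cells (difference 0.84 ± 0.18, SE, limma adjusted p = 0.0758). At day 6, 3 of the 26 rose in Pcgf5-/- cells, a share near the 9.57% of all genes tested. One was Zfp473, another partner of the U7 particle, with 2.59 and 2.97 FPKM in WT and 6.18 and 6.34 FPKM in Pcgf5-/- cells (0.94 ± 0.17, limma adjusted p = 0.0113). In WT cells 7 of the 26 rose and 2 fell over time, where 34.2% and 16.2% of all genes tested did. Lsm11 rose by 1.14 ± 0.18 (limma adjusted p = 0.00125), and Casp8ap2, a partner of NPAT, fell by 0.56 ± 0.18 (limma adjusted p = 0.0333). In Pcgf5-/- cells 2 rose and 1 fell, where 21.9% and 10.4% of all genes did, and the one that fell was Slbp, by 0.58 ± 0.18 (limma adjusted p = 0.0413).

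The listed variant histone genes, which lie outside this family, had a mixed course. Of 11 tested, none passed at day 0 by limma and 3 had an unadjusted p under 0.05, and at day 6 H3f3b rose in Pcgf5-/- cells and H2afy2 fell. At day 0 H3f3b, one of the genes of the variant H3.3, had 239 and 237 FPKM in WT and 423 and 364 FPKM in Pcgf5-/- cells, then 293 and 243 FPKM against 383 and 454 FPKM at day 6 (difference 0.64 ± 0.14, SE, limma adjusted p = 0.0220). It also lies on chromosome 11. H3f3a, which codes for the same protein, had 273 and 293 FPKM in WT against 287 and 239 FPKM at day 0. Over time in WT cells 5 of the 11 variants rose and 2 fell, where 34.2% and 16.2% of all genes tested did. In Pcgf5-/- cells 1 rose and 3 fell, where 21.9% and 10.4% of all genes did, and the same shares stand beside the counts that follow. H2afz, which codes for H2A.Z, fell in each genotype, by 0.48 and 0.70 (limma adjusted p = 0.0459 and 0.0165), and H1f0, a linker histone of cells that have stopped dividing, rose in WT cells by 1.07 ± 0.35 (limma adjusted p = 0.0326). Of 16 histone chaperones tested, 2 rose in Pcgf5-/- cells at day 6, beside 9.57% of all genes, with the largest difference in Hat1 (0.67), and in WT cells 4 rose and 3 fell over time. Of the 29 S phase and cell cycle genes, 9 fell in WT cells over time and none rose, and in Pcgf5-/- cells 2 rose and 1 fell, with the largest difference in Top2a (0.73).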

How the data were processed

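RNA-seq of 8 samples was analysed. The authors trimmed reads, removed reads under 19 nt, exactly identical duplicates and reads with many undetermined bases, aligned the rest to mm9 with TopHat2 2.0.4 and computed FPKM per gene with Cufflinks 2.1.1, per the labels and the study's methods. The annotation and the handling of reads with several matches are not given in the sources used here. Removal of identical reads lowers abundant short transcripts most. The files were joined on symbol and locus. Deposited FPKM values were analysed as log2(FPKM + 1) for the 13214 genes with a mean over 1 in at least one group, with limma 3.58.1 in R 4.3.3 (trend of the variance on expression, one mean per group, no replicate block, all 8 samples, Benjamini-Hochberg adjustment over all genes, threshold 0.05), a fit tested on simulated data. FPKM holds no counts, so no interval of a single value was derived. Each group has only 2 samples. A p-value therefore sets a difference against a spread between replicates that is pooled over the groups and drawn towards the trend over all genes.

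The members and gene lists were chosen with earlier results of these data known. Named are the 3 most abundant members of each class, the members of Hist2 to Hist4, the 5 largest differences each way per comparison, germline and polyadenylated forms, and key genes of the lists, and from those the printed ones were picked after their values were seen, as were Hist1h2ag, Hist1h2ak and Hist1h2bn. Sequences were read with pysam 0.24.0 from NCBIM37 with GENCODE gene models, and promoters from RefSeq (GRCm38.p6).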

Additional observations from a re-analysis of the deposited data

Results flagged for a closer look

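Among 75 entries, 5 moved in opposite directions over the 6 days in the genotypes, with both samples of day 6 above both of day 0 in WT and below them in Pcgf5-/- cells. The difference of the log2 changes (Pcgf5-/- minus WT) was -1.63 for Hist1h4j, -1.56 for Hist1h4k, -1.25 for Hist1h4b, -1.04 for Hist1h2bk and -0.53 for Hist2h2be. In 3 entries both Pcgf5-/- samples lay above both WT samples at day 0 and below them at day 6, namely Hist1h4c (difference of the genotype differences -0.86), Hist1h2ba (-0.76) and Hist2h2be (-0.53). Over all genes tested 2.04% had the first pattern and 7.87% the second. The values come from the fit of all genes, but they contain the levels at day 0 on which the family was chosen, so they are a description, with no test read from it. Hist2h2be had at most 0.52 FPKM in any sample.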

How the results depend on the processing

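No named call changed its sign under any alternative. Members that rose or fell numbered 2 at day 6 between the genotypes, 6 over time in WT and 30 over time in Pcgf5-/- cells. With quantile normalization the counts were 4, 20 and 37, and with each sample centred on the median 3, 18 and 36. Shares over all genes under these normalizations are not given here, so the counts are not read as particular to the family. With a pseudocount of 0.1 or 0.01, 10 passed in WT. With a mean FPKM over 5 the counts between genotypes and in Pcgf5-/- cells were 1 and 17, with fewer members tested, and without the trend 4 passed between genotypes. Leaving out each sample gave 0 to 3, 5 to 8 and 15 to 31. With no FPKM minimum the counts were 2, 4 and 23. The median over all 75 entries at day 0 was 0.94 and 1.08 with pseudocounts of 0.1 and 0.01. In Pcgf5-/- cells over time it was -0.97 and -1.06 with these, -0.90 with quantile normalization and -0.87 after centring, and in WT -0.31 and -0.36 with the last pair. Leaving out each sample gave medians between the genotypes at day 6 of 6.18e-05 to 0.18, the last without the first Pcgf5-/- sample of that day. Replicate numbers did not pair the samples across days: differences between replicates correlated at 0.39 between genotypes at day 6, 0.10 at day 0 and -0.08 to -0.02 across days. With a replicate block 2, 10 (4 rose, 3 of them abundant H2A entries, and 6 fell) and 28 members passed, and with a block for each day 3, 8 and 22. No locus was under 300 bp, so that limit removed none. Depth could be given only relative to 1 sample, so the counting error of low members is unknown. The causes of these changes were not tested.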
